A study of Rattus norvegicus with 3 samples.

Results

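Iron storage and transport genes were examined in the motor cortex of untreated rats. The set holds 9 gene symbols: the ferritin chains Fth1 and Ftl1, the carrier transferrin (Tf) and its receptor (Tfrc), the membrane transporters Slc40a1 and Slc11a2, the RNA-binding iron regulators Aco1 and Ireb2, and the ferroxidase ceruloplasmin (Cp). They were picked by symbol, with earlier results of these data known. Of the 9 symbols 8 matched a row, each with 1 gene ID, among the 30957 genes of the tables. Expression of Slc40a1 was not analysed here. The study profiled the mRNA of 3 male rats of the outbred Sprague-Dawley stock, with 1 library per animal. The labels give the animals the numbers 32, 39 and 68, place all 3 in a group called normal with no treatment, and add a time of 8 weeks without saying whether that is an age. Values are FPKM, fragments scaled to gene length and sequencing depth, so levels of different genes can be set side by side per length, as far as gene models and mapping allow.

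A cell takes up iron when transferrin, loaded with ferric iron, binds its receptor and is carried into endosomes, where a reductase and the divalent metal transporter encoded by Slc11a2 pass the iron to the cytosol. Iron that is not used is stored in ferritin, a hollow shell of heavy chains, which oxidise iron, and light chains, which help to form the mineral core. The proteins of Aco1 and Ireb2 bind stem-loops called iron-responsive elements. When iron is scarce they hold back translation of ferritin mRNA and protect the mRNA of the transferrin receptor from decay. In the brain, oligodendrocytes are known for their transferrin and ferritin, the choroid plexus also makes transferrin, and the transferrin receptor is found on capillary endothelium and neurons. Ceruloplasmin is known in astrocytes as an anchored ferroxidase that works with the exporter ferroportin.

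The libraries held about 15460924 to 17670986 fragments, inferred from short loci, so that a gene at 1 FPKM rests on 15.5 to 17.7 fragments per kilobase. All 12 neuronal markers were above 0 in every library, led by Snap25 and Thy1, and all 8 deep-layer and motor cortex markers passed a mean of 1 FPKM. Of these 8, 1 was more than 2-fold lower in animal 68 than in animal 32, and 0 were more than 2-fold higher. It was Tbr1, at 43.7, 36.0 and 15.9 FPKM in animals 32, 39 and 68. The libraries also differed in other cell types. Choroid plexus markers (11 of 12 listed genes measured, none at 0) summed to 11.9, 643 and 7713 FPKM for animals 32, 39 and 68. Oligodendrocyte markers (12 genes, none at 0) summed to 3396, 5225 and 9185 FPKM in the same order, astrocyte markers to 1228, 1342 and 2288, and neuronal markers to 5314, 4787 and 4005. Ependymal markers (7 of 8 listed genes measured) summed to 12.4, 26.0 and 78.2 FPKM, and microglial markers (12 genes) to 80.1, 112 and 159. In each of these sums animals 32 and 68 lay at opposite ends with animal 39 between them, and values are given per animal. Single markers did not all follow the sums: the median astrocyte marker stood at 27.1, 22.1 and 46.3 FPKM in animals 32, 39 and 68. Dissection, library and animal cannot be told apart here, and in bulk tissue neither can fewer cells of a type and less RNA per cell.

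The 8 genes ran from Cp, the lowest, to Fth1, the highest. Mean levels over the 3 animals were 1379 ± 248 FPKM for Fth1 (SD, n = 3, as for all such values), 384 ± 286 for Tf (222 without animal 68), 89.7 ± 17.0 for Ftl1, 31.1 ± 4.49 for Tfrc, 15.8 ± 2.21 for Aco1, 10.7 ± 1.047 for Ireb2, 10.2 ± 0.203 for Slc11a2 and 3.54 ± 1.31 for Cp. All 8 passed the filter of a mean of at least 1 FPKM. Fth1 ranked 19th among all genes and Cp 10578th. Together the 8 genes held 0.312, 0.366 and 0.556% of all FPKM in animals 32, 39 and 68.

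**Figure D1:**
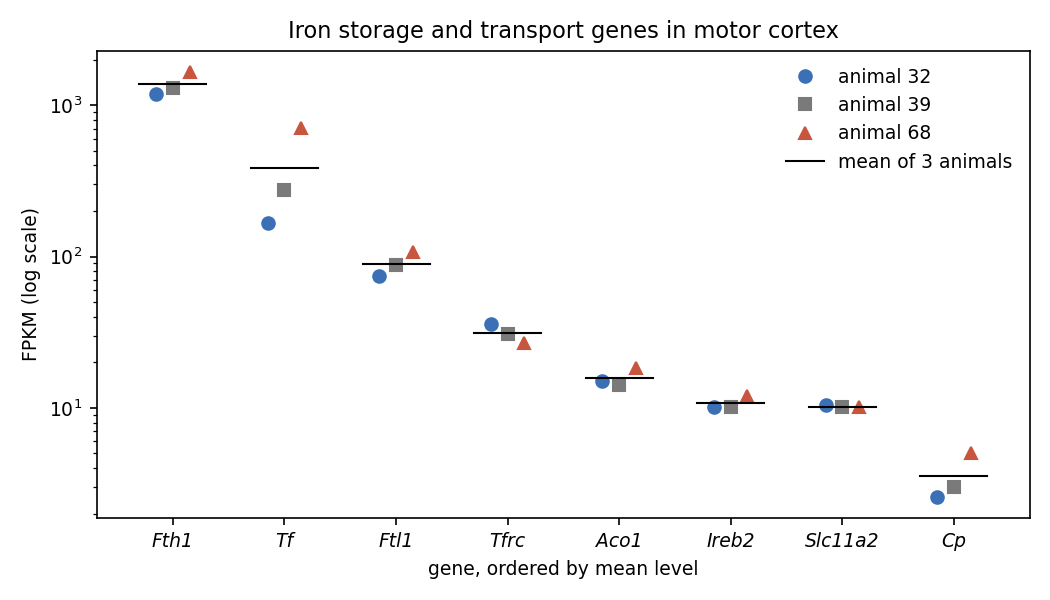
Level of each of the 8 genes in FPKM (log axis), with 1 point per animal and a bar at the mean of the 3 animals. Fth1 is the highest in every animal, Tf spreads from 168 to 709 FPKM, and Ireb2 and Slc11a2 lie at the same height near 10.

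Which neighbours in this order differ was tested as the log2 ratio within each animal, with limma fitted over the 13377 other genes that pass the filter and Benjamini-Hochberg adjustment over them. Of the 7 neighbouring steps 6 passed an adjusted p of 0.05 in this fit. Among all genes, 99.9% differed from Fth1, 95.9% from Tf, 95.1% from Ftl1, 88.4% from Tfrc, 83.1% from Aco1, 84.3% from Ireb2 and 84.2% from Slc11a2 by the same rule, so a passed step is the usual outcome. The step that did not pass was Ireb2 over Slc11a2, with a log2 ratio of 0.07 (95% interval -0.22 to 0.36, adjusted p = 0.600, limma). These fits draw the variance of each gene towards that of all genes, which share the noise of the reference gene. Without that moderation 3 of the 7 steps passed: Fth1 over Tf, Ftl1 over Tfrc and Aco1 over Ireb2. Among all genes the shares were then 99.8% against Fth1, 85.6% against Tf, 89.5% against Ftl1, 73.4% against Tfrc, 62.6% against Aco1, 66.1% against Ireb2 and 67.7% against Slc11a2. Tf over Ftl1 (adjusted p = 0.0618 in limma without moderation), Tfrc over Aco1 (0.0594) and Slc11a2 over Cp (0.0502) then missed the threshold.

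The ferritin heavy chain gene was the highest of the set in every animal. Fth1 (ENSRNOG00000022619, Rnor_6.0 chromosome 1, 226030938 to 226033228, plus strand) measured 1182, 1298 and 1658 FPKM in animals 32, 39 and 68. The light chain gene Ftl1 (ENSRNOG00000020843, chromosome 1, 101448346 to 101449829, minus strand) measured 74.0, 87.4 and 107.8 FPKM. Both were lowest in animal 32 and highest in animal 68, and their ranges did not overlap. The heavy chain exceeded the light chain 16.0-fold, 14.9-fold and 15.4-fold in animals 32, 39 and 68. The mean log2 ratio was 3.94 (n = 3, moderated SE 0.19, adjusted p = 2.09e-09 in limma). Without moderation the SE was 0.030 and the adjusted p in limma 0.000839. The heavy chain was thus the higher in 3 of 3 animals, and the fold varied less over the animals than either level did.

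Several other loci carry the description of a ferritin light chain, and the division of fragments between them and Ftl1 is uncertain. The tables list 9 loci described as ferritin light chains, 8 of them above 0. LOC100360087 (chromosome 5, 152325871 to 152326778) measured 71.3, 81.3 and 99.0 FPKM in animals 32, 39 and 68, almost the level of Ftl1 itself. LOC100362384 (chromosome 13, 89253617 to 89254171) measured 54.5, 56.7 and 73.1 FPKM. RGD1560687, Ftl1l1, LOC100359668 and RGD1566189 had means between 6.23 and 8.25 FPKM, and RGD1561661 a mean of 0.126. Ftl1 held 32.6, 34.2 and 34.2% of the summed light chain signal. With all light chain loci summed, the heavy chain exceeded the light chain 5.21-fold, 5.08-fold and 5.26-fold, a log2 ratio of 2.37 (SE 0.20, adjusted p = 4.13e-07, limma). The mean ratio was thus 15.4-fold against Ftl1 alone and 5.19-fold against all light chain loci, and how fragments were assigned among them was not examined.

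A short stretch of sequence can be compared between a pair of these loci. The RefSeq table of windows from 250 bases before to 50 after a gene start (build GRCr8) holds 3 windows named for light chain loci. Of these windows 2, from different loci, hold the core of an iron-responsive element just inside the transcript. The core searched for is a C, then 5 bases of any kind, then CAGTG. In the element the first C is the bulge of the stem and CAGTG opens the loop that the proteins of Aco1 and Ireb2 bind. The 30 bases that end with this core are shown because they are identical in both copies (0 differences). Capitals mark the core. The first lies at chr5:151606516-151606545 (plus strand) and the second at chrX:136687587-136687616 (minus strand).
LOC100360087: cccgaggatctgtatcttgCTTCAACAGTG
Ftl1l1: cccgaggatctgtatcttgCTTCAACAGTG
On the transcript strand 9.58% of all 33469 windows hold the core by sequence alone, and 18.4% hold it on either strand, so a match is a description and not a site. Letters within these 30 bases do not tell the 2 loci apart. Among the windows of the 7 symbols of the set that matched the table, 0 hold the core on the transcript strand. These windows end 50 bases after the gene start and include none for Fth1 or Ftl1. An element further into a transcript would be missed, so this count does not show that these genes lack one.

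**Figure D2:**
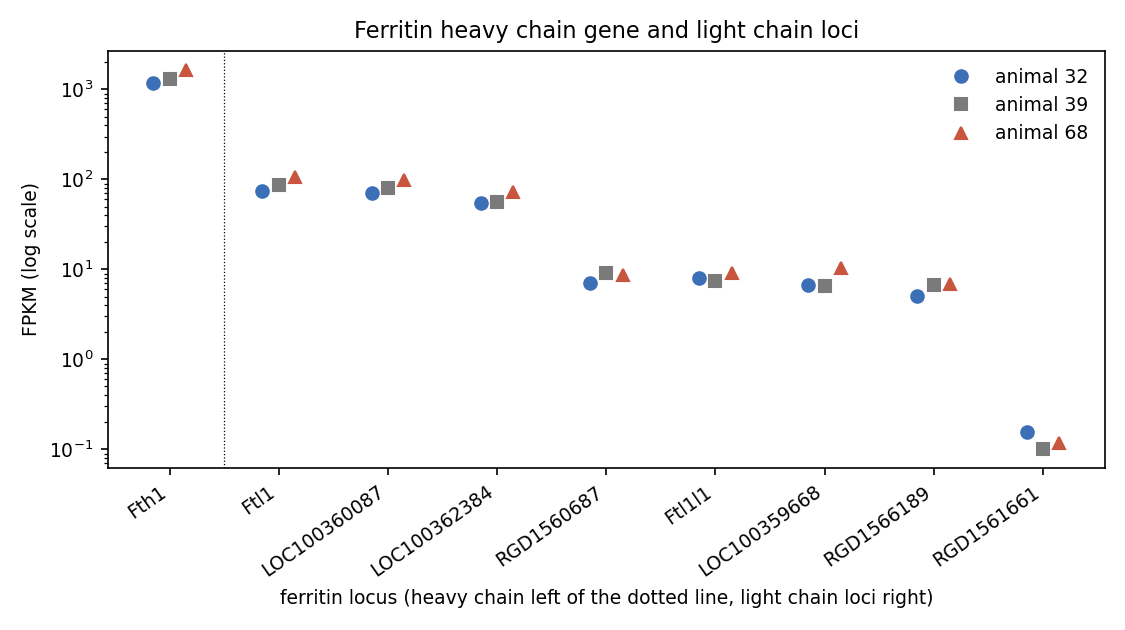
FPKM (log axis) of the ferritin heavy chain gene Fth1 and of the 8 light chain loci above 0, with 1 point per animal. LOC100360087 and LOC100362384 lie close to Ftl1, whereas RGD1561661 lies near 0.1 FPKM.

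Of the 8 genes transferrin had the widest range between animals. Its receptor, which varied only 1.33-fold, was lowest where transferrin was highest. Tf (ENSRNOG00000030625, chromosome 8, 111673547 to 111721333, minus strand) measured 168, 276 and 709 FPKM in animals 32, 39 and 68. The highest value was 4.23-fold the lowest. Fth1 exceeded Tf by 2.82, 2.23 and 1.23 on the log2 scale, a mean of 2.09 (moderated SE 0.29, adjusted p = 3.58e-05 in limma). Without moderation the SE was 0.46 and the adjusted p in limma 0.0461. Tf exceeded Ftl1 by 1.18, 1.66 and 2.72, a mean of 1.85 (SE 0.82, adjusted p = 0.0253, limma). This call was lost without moderation (adjusted p = 0.0618 in limma), without animal 32 (0.0909) or without animal 39 (0.333). Against the summed light chain loci the log2 ratios were -0.43, 0.11 and 1.17, so that the place of Tf above the light chain was not the same in every animal.

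The receptor gene Tfrc was the lower of the pair throughout. Tfrc (ENSRNOG00000001766, chromosome 11, 71397383 to 71419223, minus strand) measured 35.8, 30.8 and 26.8 FPKM, with the highest value in animal 32. That value was 1.33-fold the lowest, and 46.0% of genes had a wider log2 range than Tfrc. Ftl1 exceeded it by a mean of 1.52 on the log2 scale (SE 0.22, adjusted p = 6.29e-06 in limma, and 0.0364 without moderation), a 2.86-fold difference that became 8.49-fold (log2 3.09) with light chain loci summed. Tfrc in turn exceeded Aco1 by 1.25, 1.12 and 0.55, a mean of 0.97 (SE 0.19, adjusted p = 0.00111 in limma, and 0.0594 without moderation). Both gaps had the same direction in 3 of 3 animals. Carrier exceeded receptor by 2.23, 3.16 and 4.72 on the log2 scale, with a mean of 3.37 (SE 0.79, 3 of 3 animals, adjusted p = 2.48e-05, limma). Without moderation the adjusted p in limma was 0.0508, and with animal 39 left out it was 0.0781. The mean fold was 10.3, and 6.47 without animal 68, so its size rests largely on that library.

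Markers of other cell types differed along with these genes. In animals 32, 39 and 68 Tf amounted to 4.94, 5.28 and 7.72% of the summed oligodendrocyte markers. The gap between animals was thus wider for Tf than for this sum. Between animals 32 and 39, Cldn11, Mbp and Mobp differed by more than Tf (log2 0.81, 0.78 and 0.75 against 0.72). The other oligodendrocyte markers differed by less. From animal 32 to animal 68 the oligodendrocyte sum was 2.70-fold higher, with 12 of 12 genes higher, led by Mbp (1341, 2305 and 3727 FPKM). The choroid plexus sum was 650-fold higher over the same animals, led by Ttr at 8.36, 615 and 7264 FPKM. With animal 68 left out, Tf still differed 1.65-fold between animals 32 and 39, where the oligodendrocyte sum differed 1.54-fold and the choroid plexus sum 54.2-fold. The part of either cell type in the Tf level was not tested. For Tfrc, summed endothelial markers (10 of 12 listed genes measured, none at 0) stood at 140.0, 127 and 118 FPKM, and Tfrc amounted to 25.5, 24.2 and 22.7% of them. The median endothelial marker was nearly flat, at 6.15, 6.51 and 6.15 FPKM. Of the 10 genes, 2 (Kdr and Emcn) were higher in animal 68 than in animal 32. None of the 12 neuronal markers was higher in animal 68 than in animal 32, and their part in the Tfrc level was not tested either.

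**Figure D3:**
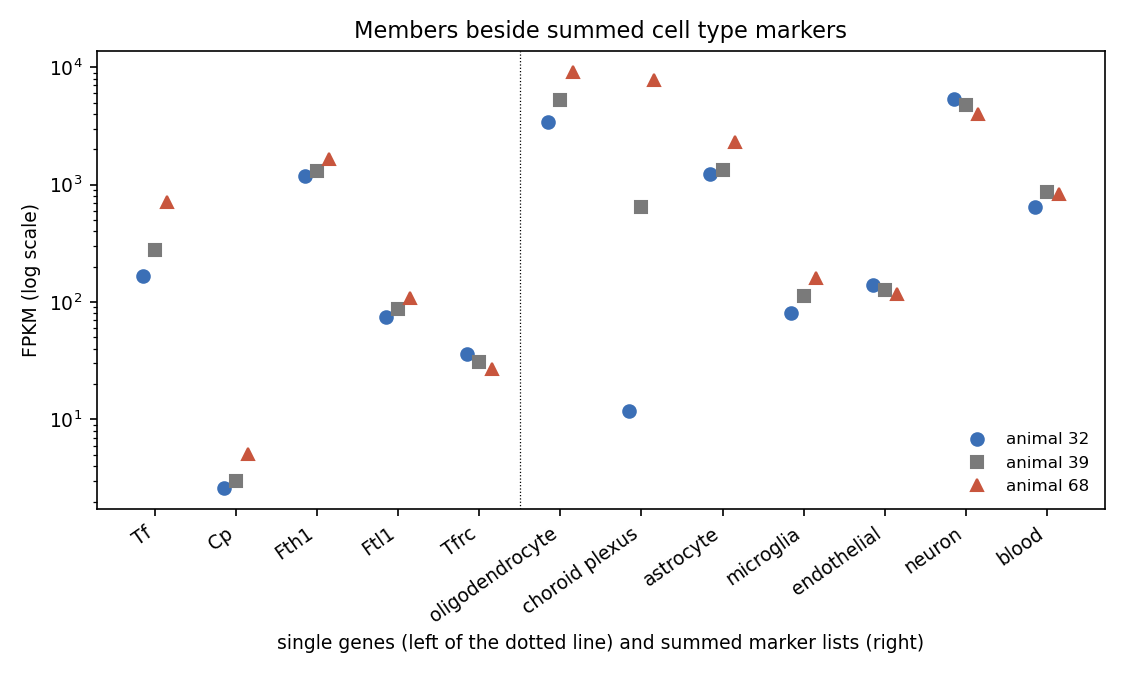
FPKM (log axis) of 5 of the genes, left of the dotted line, and of summed marker lists of 7 cell types, right of it, with 1 point per animal. Choroid plexus markers run from 11.9 to 7713 FPKM, oligodendrocyte markers and Tf are highest in animal 68, and Tfrc and the sums of endothelial and neuronal markers are lowest there.

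The upstream sequences of carrier and receptor are shown because their levels were ordered in opposite ways over the animals. A link between these sequences and the levels was not tested. Of the 9 symbols 7 matched the RefSeq table (GRCr8), all but Fth1 and Ftl1, with 2 windows for Slc11a2. Each stretch is the 150 bases before the gene start, 5′ to 3′ on the strand of the gene. Capitals mark matches on either strand to ACGTG (the core bound by hypoxia-inducible factors), to the CCAAT box, to the TATAA box and to GGGCGG (a GC box). Tf lies at chr8:112695377-112695526 and Tfrc at chr11:81690319-81690468, both on the minus strand.
Tf: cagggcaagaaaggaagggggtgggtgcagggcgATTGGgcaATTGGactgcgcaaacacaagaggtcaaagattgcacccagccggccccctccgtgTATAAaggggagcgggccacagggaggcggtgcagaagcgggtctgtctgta
Tfrc: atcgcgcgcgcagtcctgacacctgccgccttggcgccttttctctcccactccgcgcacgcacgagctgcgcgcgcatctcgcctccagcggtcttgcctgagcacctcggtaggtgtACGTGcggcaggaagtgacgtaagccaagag
Over the whole windows, ACGTG was found for 1 of the 7 symbols (Tfrc), against 19.3% of all windows. CCAAT was found for 4 (37.5% of all windows), TATAA for 3 (26.2%) and GGGCGG for 5 (33.1%). The Tf stretch holds CCAAT on the reverse strand in 2 places and TATAA in 1.

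The importer gene Slc11a2 had nearly the same deposited value in every library. Slc11a2 (ENSRNOG00000019550, chromosome 7, 142025815 to 142063212, minus strand) encodes the divalent metal transporter of endosomes and measured 10.4, 10.1 and 10.1 FPKM in animals 32, 39 and 68. Of the 13378 genes that pass the filter, 97.9% had a wider log2 range over the animals. Cp (ENSRNOG00000011913, chromosome 2, 104744461 to 104799853, plus strand), which oxidises iron as it leaves the cell, measured 2.59, 3.01 and 5.03 FPKM. It was highest in animal 68, by 1.94-fold over animal 32, where astrocyte markers were 1.86-fold higher in sum and 12 of 12 of them were higher. In the same comparison microglial markers were 1.98-fold, oligodendrocyte markers 2.70-fold, ependymal markers 6.29-fold and choroid plexus markers 650-fold higher in sum. The part of any of these in the Cp level was not tested. Slc11a2 exceeded Cp by 1.56 on the log2 scale (SE 0.23, adjusted p = 0.00261 in limma, and 0.0502 without moderation) in 3 of 3 animals. A pair of loci described as like the exporter gene share the symbol LOC100911874. ENSRNOG00000003872 (chromosome 9, 52894365 to 52912293) measured 0.560, 0.819 and 0.612 FPKM in animals 32, 39 and 68, and the second ID was listed at 0 in all 3.

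The genes of both iron regulatory proteins lay below Tfrc in the order, with Aco1 above Ireb2. Aco1 (ENSRNOG00000005849, chromosome 5, 56425024 to 56481218, plus strand) encodes the protein that is cytosolic aconitase when it carries an iron-sulfur cluster and an RNA-binding regulator when it does not. In animals 32, 39 and 68 it measured 15.01, 14.1 and 18.3 FPKM. Ireb2 (ENSRNOG00000013271, chromosome 8, 59420123 to 59501118, plus strand), whose protein is degraded when iron is plentiful, measured 10.1, 10.1 and 11.95 FPKM. Both were highest in animal 68, and every Aco1 value lay above every Ireb2 value. Aco1 exceeded Ireb2 by 0.56, 0.47 and 0.61 on the log2 scale, a mean of 0.55 or 1.46-fold (n = 3, moderated SE 0.16, adjusted p = 0.00571 in limma). Without moderation the SE was 0.040 and the adjusted p in limma 0.0196. With animal 32 left out the ratio was 0.54 and the adjusted p in limma 0.0696.

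Of the 8 genes 1 differed more than 2-fold between animals, a share near the background. Between animals 32 and 68, Tf alone passed 2-fold, while 9.77% of all genes were more than 2-fold higher in animal 68 and 3.05% more than 2-fold higher in animal 32 (12.8% in either direction). Between animals 39 and 68, Tf alone passed again, at 1.36 on the log2 scale, against 4.18% of genes higher in animal 68 and 1.97% higher in animal 39 (6.14% in either direction). Between animals 32 and 39 none of the 8 passed, against 2.59% higher in animal 39 and 0.553% higher in animal 32 (3.14% in either direction). With 1 library per animal these are counts without a test. The median log2 difference of animal 68 over animal 32 was 0.39 for the 8 genes and 0.07 for all genes. Individual values were 2.08 for Tf, 0.93 for Cp, 0.54 for Ftl1, 0.49 for Fth1, 0.28 for Aco1, 0.23 for Ireb2, -0.05 for Slc11a2 and -0.41 for Tfrc. That of Slc11a2 became 0.01 when libraries were scaled to equal FPKM totals, and -0.12 with mitochondrially encoded genes left out of them. It was -0.15 under median-of-ratios scaling and -0.18 under quantile normalization. The other 7 kept their sign under all 4 scalings tried. A wider log2 range than that of Tf was found in 2.22% of genes, than that of Cp in 16.4%, than that of Ftl1 in 34.6% and than that of Fth1 in 39.1%.

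**Figure D4:**
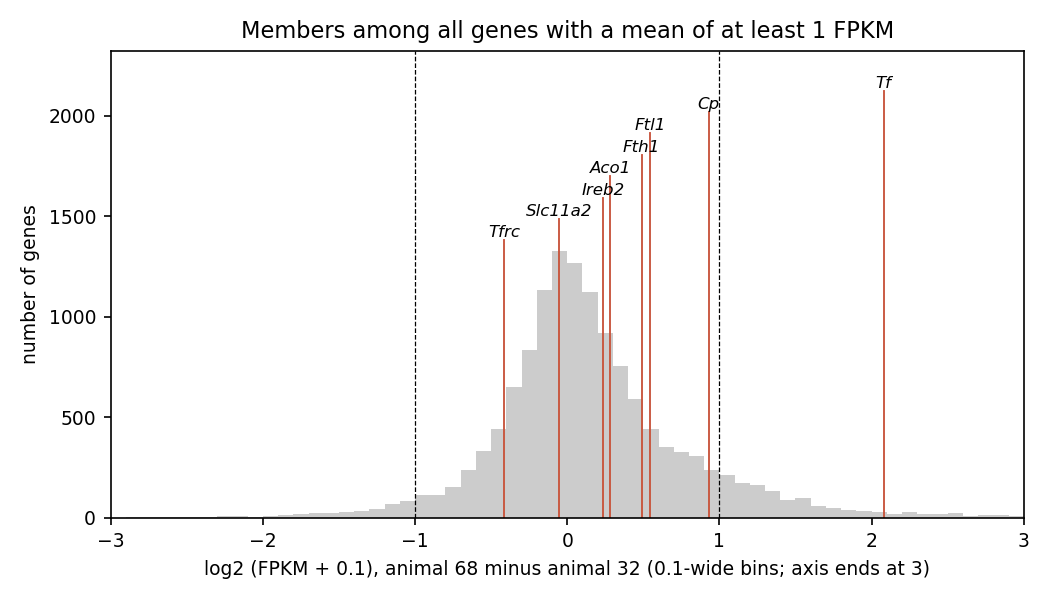
Histogram of the log2 difference between animals 68 and 32 for all genes that pass the filter, with vertical lines at the 8 genes and dashed lines at 2-fold. Tf at 2.08 lies beyond the dashed line, Cp at 0.93 just within it, and Tfrc at -0.41 on the other side of 0.

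Few genes lay near Tf over the animals, a count that depends on how widely a gene ranges. Only 2.22% of genes had a wider log2 range than Tf. Around the mean of each gene, 21 genes (0.157% of those tested) stayed within 0.1 log2 of Tf in all 3 animals. The 3 nearest were AABR07017693.1 (3.96, 6.74 and 17.2 FPKM in animals 32, 39 and 68), the cation channel gene Trpm3 (3.52, 6.004 and 15.7) and the cadherin receptor gene Celsr1 (0.577, 0.966 and 2.73). They differed from Tf by at most 0.02, 0.03 and 0.04 on the log2 scale. Over 3 animals such a likeness is a description. For the flatter genes it says less: 2530 genes were as near to Slc11a2, 1577 to Ireb2, 870 to Tfrc, 860 to Aco1, 857 to Fth1, 739 to Ftl1 and 285 to Cp.

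Other genes of iron and heme handling were read from 7 lists of 77 genes, of which 76 had a row and 60 passed the filter. Of these 60, 6 were more than 2-fold higher in animal 68 than in animal 32 and none was lower, against 9.77 and 3.05% of all genes. Iron uptake genes and reductases held 3 of the 6. The ferrireductase gene Steap1 measured 0.330, 0.606 and 5.13 FPKM in animals 32, 39 and 68, ordered over the animals as the summed choroid plexus, ependymal, oligodendrocyte, microglial and astrocyte markers were. The median astrocyte marker was not in this order. The highest of this list were Slc22a17, a lipocalin receptor (301 ± 19.2 FPKM), the lysosomal cation channel gene Mcoln1 (26.5 ± 3.56) and the reductase gene Cyb561 (20.2 ± 4.06). Iron sensing genes held the other 3, including Hfe, a partner of transferrin receptors, at 0.838, 1.36 and 4.02 FPKM. That list also held the hypoxia-inducible factor gene Epas1 (39.4 ± 4.96 FPKM) and Fbxl5, which marks the Ireb2 protein for degradation (20.5 ± 2.84). The part of these cell types in the differences was not tested.

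The lists of ferritin delivery, iron-sulfur assembly and heme held no gene past 2-fold between animals 32 and 68 among those that pass the filter. Among all genes 12.8% passed in either direction between these animals, 6.14% between animals 39 and 68, and 3.14% between animals 32 and 39. Counts of 0 in lists this short therefore say little. Ncoa4, the receptor that takes ferritin to the lysosome, measured 33.3 ± 2.57 FPKM, and the iron chaperone gene Pcbp2 69.0 ± 1.72. Pcbp1, another iron chaperone, was listed at 0, 0 and 0.0573 FPKM, values that can be a failed estimate. None of the 20 genes of mitochondrial iron import and iron-sulfur assembly that pass the filter differed by over 2-fold between any pair of animals. Isca1 (107 ± 1.19), Iscu (62.1 ± 3.28) and Hspa9 (54.7 ± 5.80) led that list, and the importer gene Slc25a37 had its widest range (2.15, 2.01 and 3.95 FPKM). None of the 11 heme synthesis genes passed 2-fold either, with Urod at 21.9 ± 3.50, Alas1 at 18.5 ± 1.68 and Cpox at 17.8 ± 3.43. In heme breakdown and scavenging Slc48a1, a heme transporter (91.6 ± 22.8), Lrp1, a receptor for heme bound to hemopexin (50.9 ± 5.64), and the oxygenase gene Hmox2 (48.7 ± 3.69) were highest. Haptoglobin (Hp), at 1.48, 3.51 and 1.87 FPKM, was the gene there that passed 2-fold, between animals 32 and 39. In the list of efflux and ferroxidases 4 of 5 genes had a row, the heme exporter gene Flvcr1 being not analysed here, and none passed the filter. The ferroxidase gene Heph measured 0.774 ± 0.332 FPKM, Hephl1 0.0733 ± 0.0952, and the iron hormone gene Hamp 0, 0 and 0.315.

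**Figure D5:**
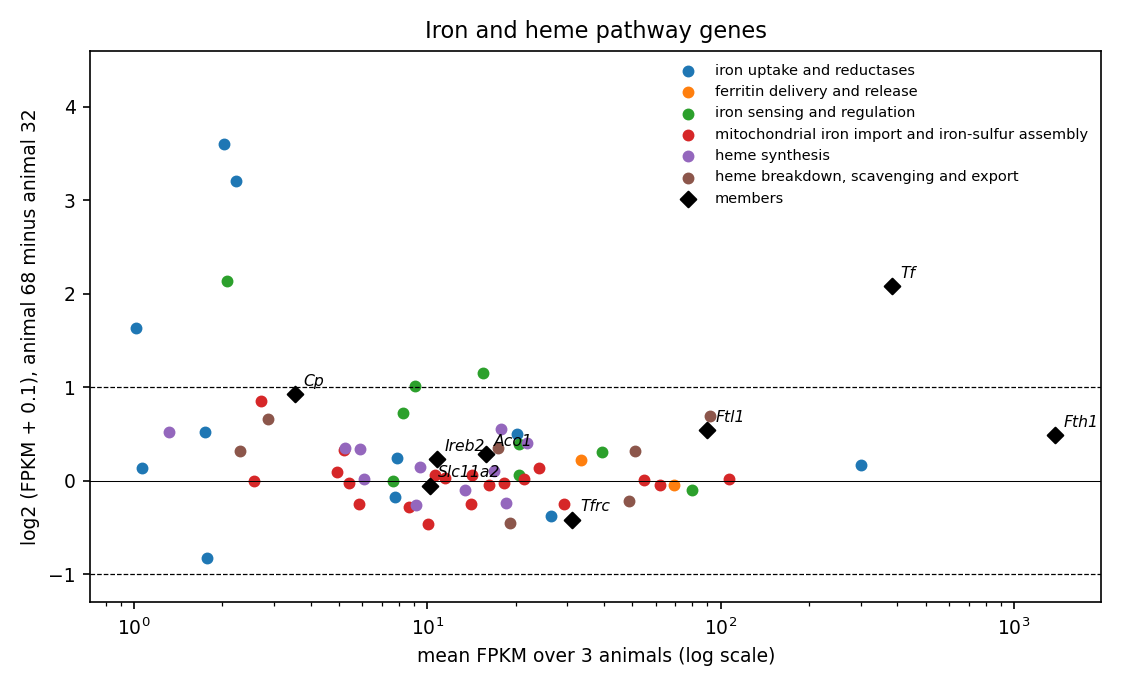
Mean FPKM over 3 animals (log axis) against the log2 difference between animals 68 and 32 for the 60 pathway genes that pass the filter, coloured by list, with the 8 genes as black diamonds and dashed lines at 2-fold. The 6 pathway genes beyond the upper line have low to moderate means, and Tf lies beyond it at 384 FPKM.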

How the data were processed

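The labels' protocols describe RNA integrity checks, a DNase step, mRNA enrichment, fragmentation and library construction. Per the series' design text, the authors counted fragments per gene, normalized them and computed the deposited FPKM values with a Perl script. HISAT2 2.0.4, StringTie 1.3.0 and Rnor_6.0 are named without role per the submitters' processing notes. Strandedness is not given in the sources used here, nor is the annotation release, so a gene and one that overlaps it, antisense included, may share fragments. No value above 0 was shared between libraries. Depth was inferred from loci of at most 400 bases, where 82.0 to 86.6% of values were within 0.02 fragments of a whole number. These loci include those at 1 fragment that set the depth (72.5 to 79.7% without them), and depth covers counting error only.

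Members were found by symbol, any case. Values were analysed as log2(FPKM + 0.1), which understates changes of low genes, with a filter at a mean of 1 FPKM. For a reference member, the log2 ratio of every gene to it within each animal was tested in limma 3.58.1 (R 4.3.3, moderated one-sample test, trend on the mean, Benjamini-Hochberg adjustment over all genes, threshold 0.05), and only members' rows are printed. All animals form 1 group, and flipping signs over 3 animals, the exact test of a single ratio, gives at best p = 0.25. The p-values concern these 3 animals and do not cover errors of gene length or mapping. Each SE is that of the moderated fit, not the SE over the 3 animals alone, unless given as without moderation. The fit was tested on simulated data. With Tf as reference it called genes of the reference's own level more often than the threshold, so fits without moderation were added. With Tf these too exceeded the threshold, though less, and they found fewer of the genes made to differ, so neither fit is exact for a noisy reference. Python 3.11.15 with pandas 2.3.3 and numpy 2.4.6 did the rest.

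Members, pairs and lists were chosen with earlier results of these data known. Named genes are the members, in each pathway list the 3 with the highest mean and the 1 with the widest log2 range, the 2 highest of a marker list and the 3 nearest to a member whose log2 range is above 1. The light chain copies and the loci described as like Slc40a1 were chosen after their values were seen. A few of the genes this rule picks are left out of the text.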

Additional observations from a re-analysis of the deposited data

How the results depend on the processing

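Alternatives changed the pseudocount, the filter, the variance prior, the scaling and the animals. Those added after seeing the data were fits without variance moderation, summed light chain loci, and both together. The log2 ratio of Fth1 over Ftl1 passed under every alternative, from 2.37 with light chain loci summed to 3.97 without animal 39. Tf over Tfrc ran from 2.69 to 3.94 when 1 animal was left out and passed without animals 32 and 68, but not without animal 39 (3.47, adjusted p = 0.0781, limma). Without moderation it was 3.37 (adjusted p = 0.0508), with light chain loci summed or not. Aco1 over Ireb2 ran from 0.52 to 0.59 when 1 animal was left out and did not pass without animal 32 (0.54); it was 0.51 with a pseudocount of 1. Of the steps between neighbours 6 passed, against 3 without moderation. With light chain loci summed 5 passed, against 3 without moderation. With 1 animal left out 4 to 6 passed. Ireb2 over Slc11a2 was 0.07, and without animal 68 it was -0.019 (0.10 and 0.12 without the others). Tf over Ftl1 was 1.85 (adjusted p = 0.0253, limma). It was 0.28 with light chain loci summed (adjusted p = 0.737), and did not pass without animal 32 (adjusted p = 0.0909), without animal 39 (0.333) or without moderation (0.0618). The cause of changes under left-out animals was not tested. Counts of members past 2-fold were the same under all 4 scalings, both pseudocounts and both filters. The ratio of Slc11a2 over Cp could not be computed at a filter of 5 FPKM, and the planned ratios with Slc40a1 were not run. No paired analysis was possible because all animals form 1 group.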

Other observations

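Loci named for ferritin that are not light chains had a single member above 0. Of 5 such loci, 4 were listed at 0 in all 3 libraries: the mitochondrial ferritin gene Ftmt, RGD1561106, RGD1563378 and LOC691895, and the fifth was Fth1. The light chain loci had 1 of 9 at 0 (LOC680217). A value of 0 can be a failed estimate. Nfs1, the cysteine desulfurase that every cell uses to build iron-sulfur clusters, was also listed at 0 in all 3 libraries.

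The receptor gene Scara5, which binds ferritin, measured 0.429, 1.43 and 4.80 FPKM in animals 32, 39 and 68, and the reductase gene Cybrd1 0.511, 0.745 and 1.80. Bmpr2, a receptor of the signal that controls hepcidin, measured 8.49, 18.9 and 19.0, so that animals 39 and 68 lay close together, both above animal 32. Nfe2l2, a regulator of oxidative stress genes, measured 6.49, 7.48 and 13.2. With Steap1 and Hfe these are the 6 pathway genes more than 2-fold higher in animal 68 than in animal 32, named after their values were seen.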
